A study of Mus musculus with 4 samples.

Results

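Immediate early genes are switched on within minutes of a signal, without new protein synthesis. The set described here holds 10 of them: the AP-1 family genes Fos, Fosb, Jun, Junb and Atf3, the zinc finger factor gene Egr1, Ier2, the phosphatase gene Dusp1, and the matricellular genes Ccn1 and Ccn2, which respond to mechanical load. Every probe set whose platform annotation gives one of these symbols and no other was taken. All 10 genes were found, by 12 probe sets of 22626 that are not controls, among 12393 genes with a symbol of their own. Jun and Ccn1 had a pair of probe sets each and every other gene had 1.

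As background, growth factors, calcium, stretch and shear act through MAP kinases on factors already present in the nucleus, chiefly serum response factor with its Elk and MRTF partners and CREB. These induce Fos, Egr1 and their relatives within minutes. The products are themselves transcription factors, or feed back on the pathway as Dusp1 does by dephosphorylating MAP kinases. Ccn1 and Ccn2 are also targets of YAP and TAZ, co-activators of the TEAD factors that enter the nucleus when cells are stretched or spread. In the embryonic heart the walls contract and the endocardium is exposed to flow at the stage studied.

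RNA was measured in 2 parts of the heart, the atrioventricular (AV) junction and the ventricular region, of wild-type C57BL/6 mice between embryonic days 10.5 and 11.0, with no transgene or treatment. Each region was microdissected in phosphate-buffered saline from about 80 pooled hearts and frozen in liquid nitrogen. The time between dissection and freezing is not given in the sources used here. The input to amplification was 230 ng for the AV junction and 250 ng for the ventricles. For each of them 2 Affymetrix MOE430A arrays were read, replicates 1a and 1b. Because nothing says that these came from separate pools, p-values measure the spread between arrays, which may be technical. Values are intensities scaled to a common trimmed mean of 500, and a positive log2 fold means higher in the AV junction.

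Both regions carried their own markers. Of 10 genes of cushion mesenchyme, the cells that fill the AV junction at this stage, 9 were higher there and 0 lower, led by Papss2 and Pdgfra. Of 10 genes of ventricular muscle, 0 were higher and 9 lower, led by Mb and Nppa. These lists were chosen with earlier results of these data known, so the counts are not an independent check of the dissection. The brightest bacterial control, taken as background, read 58.6 and 52.6 on the AV junction arrays, against 97.9 and 104 on the ventricular arrays. The 3' over 5' intensity ratio of actin was 21.7 and 23.4 in the AV junction, against 16.6 and 21.7 in the ventricular region, and that of Gapdh was 16.3 and 14.98 in the AV junction, against 17.4 and 18.4 in the ventricular region. Over all genes, 8.47% of the 8410 tested genes were higher in the AV junction and 6.54% lower, at an adjusted p of at most 0.05 from limma, adjusted over all 13403 probe sets tested. The median log2 fold of all genes was -0.06, and it was 0.10 when arrays were aligned on their medians instead.

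Most genes of the set that passed were lower in the AV junction. Of 10 genes 8 were bright enough to be tested, and of these 4 fell (Egr1, Ccn2, Fos and Atf3), 1 rose (Jun) and 3 did not pass (Ccn1, Ier2 and Dusp1), against the background of 6.54% lower and 8.47% higher. Fosb and Junb were too dim for the test. The median log2 fold of the 8 genes was -0.62. Arrays of the regions did not overlap for 6 of the 8, with the AV junction below in 5 and above in 1, where 62.4% of all genes tested had no overlap, 34.7% with the AV junction below and 27.7% above. Counted by probe set, 10 of the 12 were tested, with 1 higher against 7.24% of all 13403 and 4 lower against 6.58%. Arrays did not overlap for 8 of these 10 (61.2% of all), with the AV junction below in 6 (35.1% of all) and above in 2 (26.1% of all). Because regions were read in bulk, fewer cells of a type and less RNA per cell cannot be told apart. Without any 1 of the 4 arrays 0 genes of the set rose, and 3 or 4 fell.

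**Figure D1:**
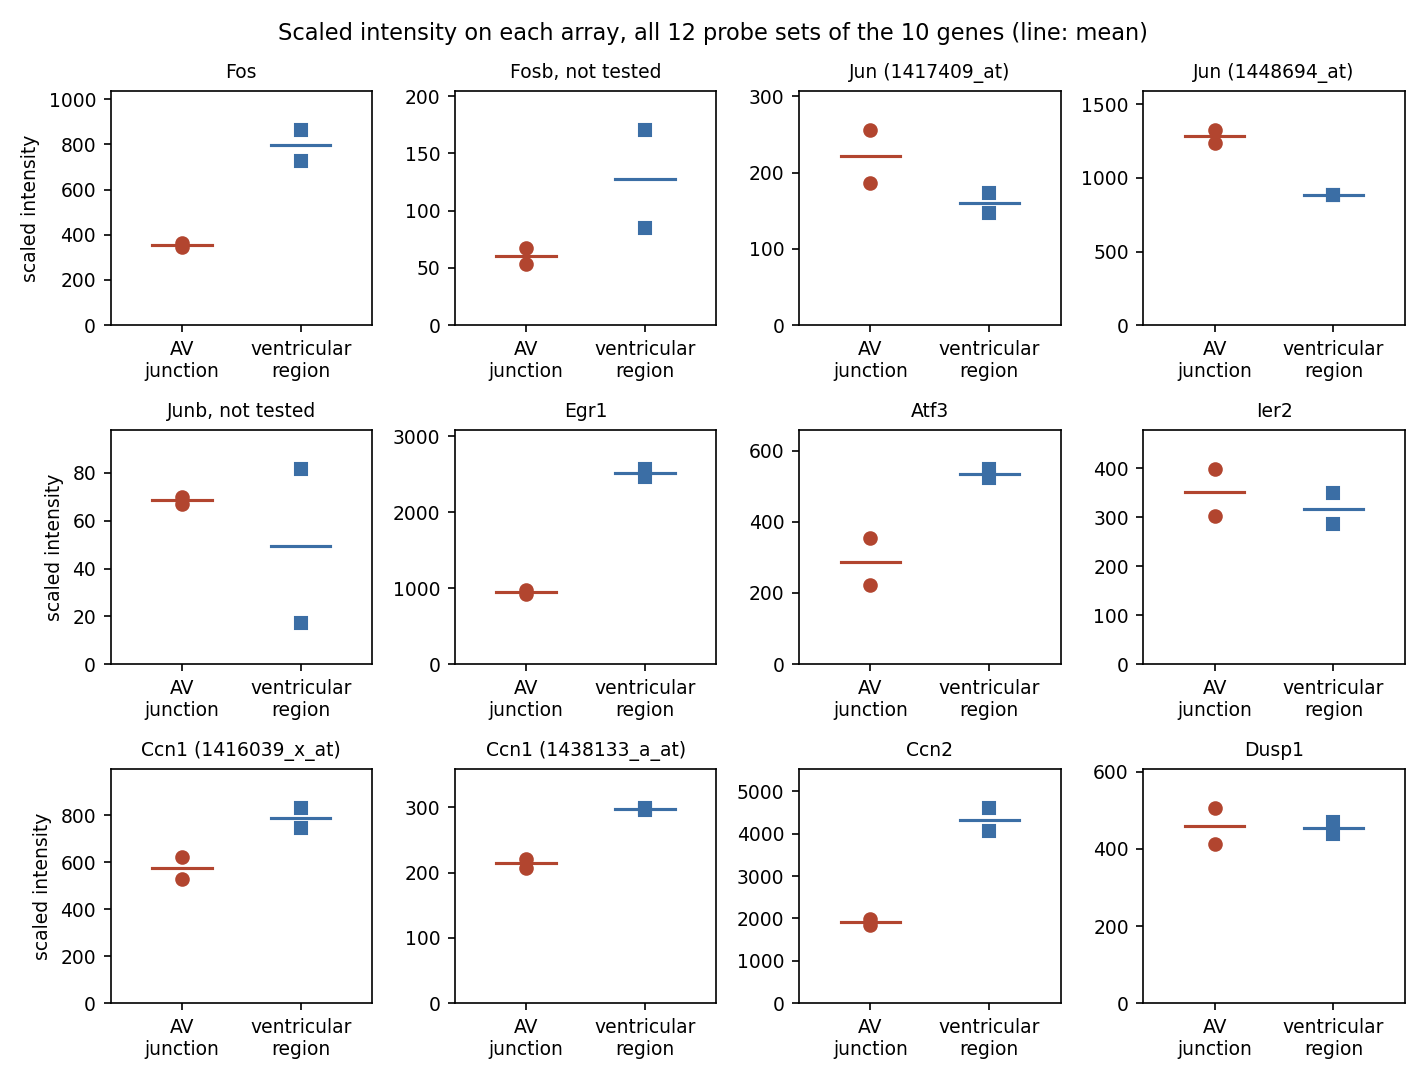
Scaled intensity (linear axis from 0) of the 12 probe sets of the 10 genes on each array, AV junction as circles and ventricular region as squares, with the mean of each region as a line. Egr1, Ccn2, Fos and Atf3 lie lower on both AV junction arrays than on either ventricular array, Jun lies higher, and the arrays of Ier2, Dusp1 and Junb overlap.

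Egr1 encodes a zinc finger transcription factor induced by growth factors and by mechanical strain, and it gave the lowest adjusted p of the set. Its intensity was 976 and 929 on the AV junction arrays, against 2574 and 2467 on the ventricular arrays. Both AV junction values thus lay far under both ventricular ones, and the arrays within a region differed little. The means were 953 ± 32.8 in the AV junction, against 2520.3 ± 75.7 in the ventricular region (SD, n = 2 arrays each), which gave a log2 fold of -1.36 (SE 0.10, 2.56-fold lower, limma, adjusted p = 5e-04). Among the 8410 genes tested this was the 47th lowest log2 fold. Under 15 alternative settings, which include leaving out each array, Egr1 passed in all 15, with log2 folds between -1.42 and -1.20.

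Fos encodes the partner that Jun proteins need for the most active form of AP-1, the dimeric factor that binds the site TGANTCA. Fos read 365 and 344 on the AV junction arrays, against 729 and 866 on the ventricular arrays. Each AV junction array was below each ventricular array, and the wider spread was in the ventricular region. The log2 fold was -1.06 with an SE of 0.14 (2.09-fold lower, limma, adjusted p = 0.00476). Fos also passed in all 15 alternatives, at -1.18 to -0.84.

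Atf3, a stress-induced member of the ATF branch that pairs with Jun proteins and often represses, was lower as well but with less certainty. It read 223 and 354 on the AV junction arrays, against 549 and 522 on the ventricular arrays. The ventricular arrays were close to each other and the AV junction arrays were not. The log2 fold was -0.82 with an SE of 0.21 (limma, adjusted p = 0.0400). The call was lost with no filter (limma, adjusted p = 0.101), with eBayes without trend (adjusted p = 0.0881) and with median scaling (adjusted p = 0.0513). It was also lost without AV junction array 1a (log2 fold -0.54) and without ventricular array 1a (-0.78) or 1b (-0.85). The log2 fold was -1.10 without AV junction array 1b.

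Jun, the central AP-1 subunit, which can also pair with itself, was the only gene of the set that rose. Its brighter probe set read 1236 and 1328 on the AV junction arrays, against 883 and 887 on the ventricular arrays. The dimmer one read 256 and 187 in the AV junction, against 173 and 147 in the ventricular region. On both probe sets the AV junction arrays were the higher ones, by a narrow margin on the dimmer. The brighter gave a log2 fold of 0.51 (SE 0.11, 1.42-fold higher, limma, adjusted p = 0.0250), and the dimmer gave 0.36 (SE 0.22) and did not pass (adjusted p = 0.297). The call of the brighter probe set was lost without any 1 of the 4 arrays (limma, adjusted p between 0.0570 and 0.100, log2 folds 0.46 to 0.56) and when the probe sets were averaged (0.44, adjusted p = 0.0595).

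Fosb, a close relative of Fos, and Junb, a Jun protein that often weakens AP-1, stayed under the mean intensity of 100 needed for the test. Fosb read 53.6 and 67.0 on the AV junction arrays, against 84.8 and 171 on the ventricular arrays, and 1 array of each region was above background. Junb read 70.0 and 67.0 on the AV junction arrays, against 17.4 and 81.8 on the ventricular arrays. Both ventricular arrays of Junb lay below background, so no fold is given. When the filter was dropped, neither passed (limma, adjusted p = 0.325 for Fosb and 0.650 for Junb).

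Promoter sequences of 7 of the 10 genes were used, from RefSeq's table of the mouse assembly GRCm38.p6, each 300 bases long with 250 before the transcription start. No window was used for Egr1, Ccn2 and Ier2. The selection skipped a single chromosome, so a gene without a window here may still have had a promoter sequence in that source. The 4 below are shown because they belong to genes that were called (Fos, Atf3 and Jun) and to Dusp1, which was not and which holds the full cAMP response element (CRE). Letters in capitals mark the motifs searched on both strands: the CRE TGACGTCA, its core TGACG (which every full CRE contains), the AP-1 site TGANTCA, the variant AP-1 site TGACATCA known from the Jun promoter, the TATA box TATAAA, the TEAD site GGAATG and the CArG box of serum response factor. The windows are at chr12:85473640-85473939, + strand (Fos), chr1:191183284-191183583, - strand (Atf3), chr4:95052173-95052472, - strand (Jun) and chr17:26508423-26508722, - strand (Dusp1).
Fos: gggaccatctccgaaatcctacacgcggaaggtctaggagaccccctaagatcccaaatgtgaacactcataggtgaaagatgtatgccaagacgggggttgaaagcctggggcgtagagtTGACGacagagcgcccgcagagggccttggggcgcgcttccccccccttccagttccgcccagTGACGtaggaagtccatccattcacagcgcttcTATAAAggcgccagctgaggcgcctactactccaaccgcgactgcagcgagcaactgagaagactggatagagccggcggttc
Atf3: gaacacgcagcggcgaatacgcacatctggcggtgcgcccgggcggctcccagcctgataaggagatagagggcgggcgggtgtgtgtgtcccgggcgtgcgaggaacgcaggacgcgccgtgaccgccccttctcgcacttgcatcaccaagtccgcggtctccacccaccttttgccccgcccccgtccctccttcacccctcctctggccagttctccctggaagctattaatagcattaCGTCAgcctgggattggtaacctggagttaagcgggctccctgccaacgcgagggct
Jun: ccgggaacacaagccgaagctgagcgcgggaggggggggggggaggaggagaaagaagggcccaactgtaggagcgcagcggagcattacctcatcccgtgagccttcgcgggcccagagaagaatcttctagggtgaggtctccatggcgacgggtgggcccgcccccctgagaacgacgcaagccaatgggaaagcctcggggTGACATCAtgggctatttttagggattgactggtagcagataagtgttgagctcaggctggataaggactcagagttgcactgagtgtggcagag
Dusp1: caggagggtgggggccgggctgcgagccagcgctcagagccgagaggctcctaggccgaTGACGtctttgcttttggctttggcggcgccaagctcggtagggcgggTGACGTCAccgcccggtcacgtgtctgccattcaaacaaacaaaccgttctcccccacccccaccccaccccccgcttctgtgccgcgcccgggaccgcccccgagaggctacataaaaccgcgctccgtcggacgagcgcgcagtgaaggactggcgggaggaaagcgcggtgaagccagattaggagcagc

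The Fos window holds the CRE core at -129 and -66 and a TATA box at -33, counted from the start site to the leftmost base as printed. In the Atf3 window the core lies at -7 on the other strand. The Jun window holds no CRE core and has the variant AP-1 site at -45, a site that Jun dimers with ATF proteins are known to bind. Dusp1 carries the core at -191 and the full CRE at -143. Of the 7 windows 6 hold the CRE core, which 20.8% of all 32851 promoter windows do, and the one without it is that of Jun. The full CRE is in 1 of 7 (Dusp1) against 1.79% of all windows, the variant AP-1 site in 1 of 7 (Jun) against 3.62%, and a TATA box in 3 of 7 against 13.6%. The TEAD site is in 1 of 7 (Ccn1) against 14.7%. No window of the 7 holds the AP-1 site TGANTCA or the CArG box, which occur in 7.81% and 1.63% of all windows. The count over all windows did not skip the chromosome that was skipped for the set. The search could not find sites farther upstream than these windows reach, and it did not cover Egr1, Ccn2 and Ier2. Whether genes of the set carry either site outside the windows was not tested. The CRE core was present in Fos and Atf3, which fell, in Ccn1 and Dusp1, which did not pass, and in Fosb and Junb, which were not tested. These matches describe letters only.

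Ier2, a nuclear protein gene induced with Fos, and Dusp1, the phosphatase that shuts MAP kinases off, did not pass. Ier2 read 399 and 303 on the AV junction arrays, against 285 and 349 on the ventricular arrays. Dusp1 read 507 and 412 on the AV junction arrays, against 469 and 438 on the ventricular arrays. In both genes the arrays of the regions overlapped. The log2 fold of Dusp1 was 0.01 with a 95% interval of -0.35 to 0.37 (limma, adjusted p = 0.967), and that of Ier2 was 0.12 with an interval of -0.32 to 0.56 (limma, adjusted p = 0.686).

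Ccn2, which encodes connective tissue growth factor, a secreted matricellular protein, was the second lowest of the set. It read 1855 and 1994 on the AV junction arrays, against 4054 and 4618 on the ventricular arrays. The regions were well apart on all 4 arrays. The log2 fold was -1.15 with an SE of 0.11 (2.22-fold lower, limma, adjusted p = 0.00109), the 94th lowest of the 8410 genes. Ccn2 passed in all 15 alternatives, at -1.24 to -0.99.

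Ccn1, its close relative, which binds integrins and is needed for normal AV septation in the mouse, did not pass. Its brighter probe set, whose name ends in _x_at, read 621 and 529.9 on the AV junction arrays, against 833 and 745 on the ventricular arrays. The dimmer one read 221 and 207 on the AV junction arrays, against 299.7 and 295 on the ventricular arrays. On both, each AV junction array was below each ventricular array. The log2 folds were -0.43 with an SE of 0.14 and -0.40 with an SE of 0.17 (limma, adjusted p = 0.0834 and 0.162). The brighter probe set did not pass in any of its 14 alternatives (lowest adjusted p = 0.0552). That ending marks a probe set with probes that may bind other transcripts too.

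**Figure D2:**
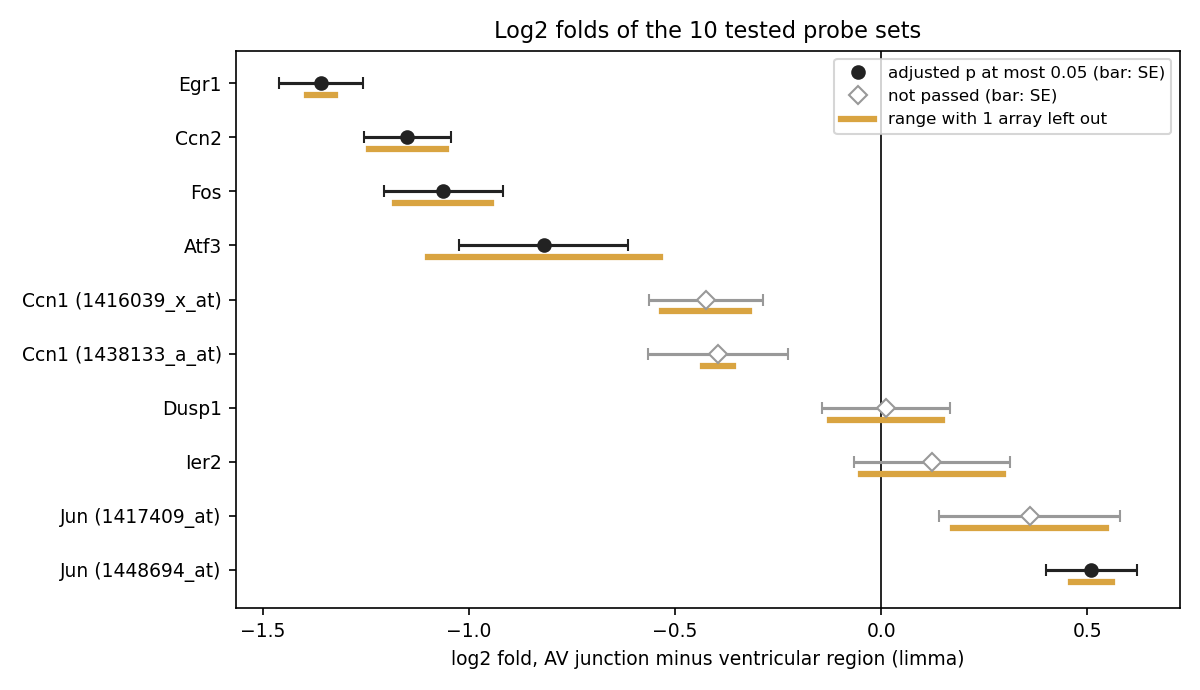
Log2 folds (AV junction minus ventricular region, limma) of the 10 tested probe sets with their SE, filled where the adjusted p was at most 0.05, and below each the range when 1 array was left out. Egr1, Ccn2 and Fos stay at or below -0.945 in every such fit, Atf3 spans -1.10 to -0.54, and Jun stays above 0 on both probe sets.

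Set among all genes tested, the 4 genes that fell lay in the lower tail. The central 90% of the 8410 genes had log2 folds between -0.75 and 0.69, and Atf3, at -0.82, was the 320th lowest. Jun at 0.51 was inside that range, the 784th highest. Genes whose centred log2 values over the 4 arrays lay nearest to those of Egr1 were Icam4 (Euclidean distance 0.02, log2 fold -1.35), Trim10 (0.04, log2 fold -1.39) and Snhg16 (0.06, log2 fold -1.34), and 26 genes lay within 0.25. For Jun these were Aebp2 (0.02, log2 fold 0.52), Vps35 (0.03, log2 fold 0.49) and Capn2 (0.03, log2 fold 0.49), with 740 genes within 0.25. This likeness rests on 4 arrays of 2 regions only.

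**Figure D3:**
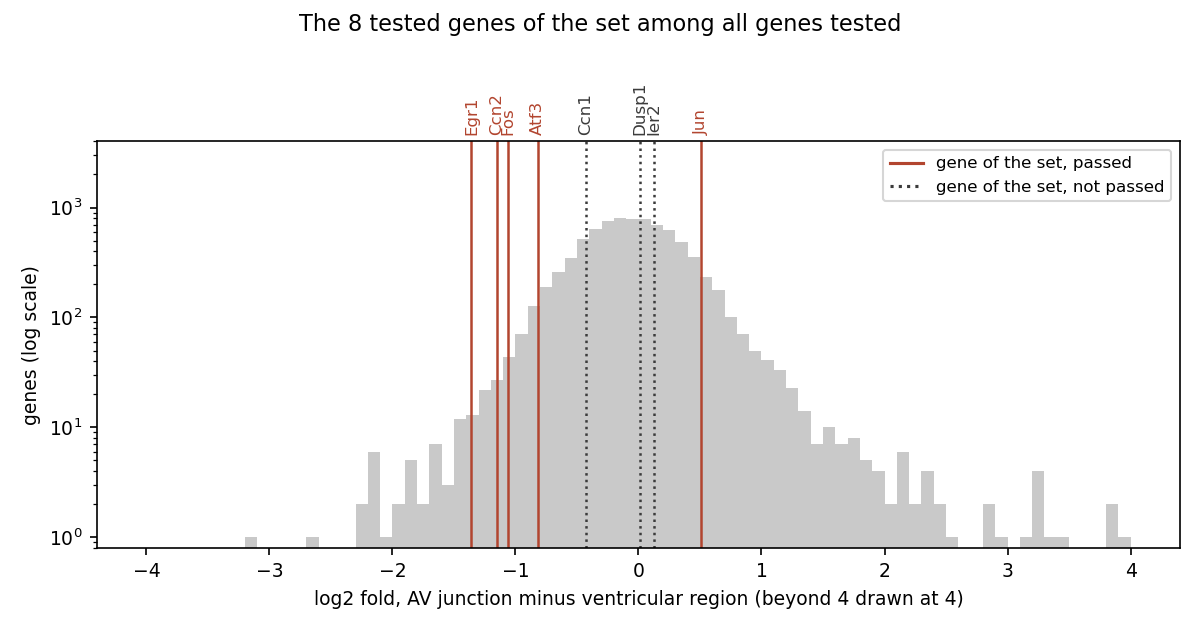
Number of genes (log axis) by log2 fold, AV junction minus ventricular region, for all 8410 genes tested, with a line for each of the 8 tested genes of the set, solid where it passed. Egr1, Ccn2, Fos and Atf3 lie in the lower tail, and Ccn1, Dusp1, Ier2 and Jun lie within the bulk.

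The other genes of these pathways were mostly higher where they passed, as were 56.4% of calls over all genes. The background over all genes tested, 8.47% higher and 6.54% lower, applies here and to each list below. A count of 1 or 2 genes in a list is too small to be set apart from that background. Over 8 lists fixed by name, 115 genes were tested, of which 26 rose, 5 fell and 84 missed the threshold. Their median log2 fold was 0.08. Without 1 array these counts were 12 to 18 higher and 1 or 2 lower.

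Among other AP-1, ATF and small Maf genes few passed. Of the 10 that could be tested 0 rose, 1 fell and 9 missed the threshold, at a median log2 fold of -0.15. The 1 lower gene was Atf4, the effector of the integrated stress response, at 1551 ± 180.1 in the AV junction, against 2324 ± 297 in the ventricular region (log2 fold -0.57, limma, adjusted p = 0.0309). A second probe set of Atf4 gave -0.16 and did not pass, and the call was lost without AV junction array 1b, ventricular array 1a or ventricular array 1b (0 lower). Atf2, a partner of Jun proteins, did not pass on its brightest probe set (0.32, adjusted p = 0.0921), and 1 of its 3 others passed as higher (0.64, adjusted p = 0.0160).

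Among other primary response genes, 33 were tested, of which 9 rose, 1 fell and 23 did not pass, at a median log2 fold of 0.17. Klf4, a zinc finger factor also induced by shear in endothelium, rose by a log2 fold of 1.71 (893 ± 18.9 in the AV junction, 238 ± 19.9 in the ventricular region, limma, adjusted p = 0.000658), while its second, dimmer probe set gave 0.31 and did not pass. Sgk1, a kinase gene induced by serum and glucocorticoids, rose by 1.34 (677 ± 96.8 in the AV junction, 242 ± 86.7 in the ventricular region, adjusted p = 0.0103), with an adjusted p of 0.0503 without AV junction array 1a. The other 7 higher genes were Rhob, Nfkbia, Tiparp, Klf6, Phlda1, Zfp36l1 and Id1, at log2 folds between 0.62 and 1.12. Further probe sets did not pass for Nfkbia (0.08 and 0.19, while another passed at 1.15), Tiparp (-0.23, with another passing at 0.83) or Zfp36l1 (-0.65, adjusted p = 0.174). For Klf6, a dimmer probe set just under the floor of 100 was not tested. It gave -0.65, with both AV junction arrays below both ventricular ones, and the dimmest one, also not tested, gave 0.26. The 1 lower gene was Gadd45g, a stress sensor of cell cycle arrest, at -0.59 (adjusted p = 0.0462), and 0 were lower without any 1 of the 4 arrays.

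Upstream of the set, 16 kinases and factors were tested, of which 4 rose, 0 fell and 12 did not pass, at a median log2 fold of 0.27. Elk3, a ternary complex factor that sits with serum response factor on Fos and Egr1 and represses until phosphorylated, rose by 1.04 (1002 ± 11.8 in the AV junction, 462 ± 1.07 in the ventricular region, limma, adjusted p = 0.00248), and by 1.02 on a second probe set. Rps6ka3, a kinase downstream of ERK, rose by 0.94 (adjusted p = 0.00822), but a second probe set gave -0.13 and did not pass. Nab1, a co-repressor that binds EGR1, rose by 0.49 (adjusted p = 0.0310) and gave 0.06 on its second probe set. Elk4 rose by 0.50 (adjusted p = 0.0426), while both of its other probe sets went the other way without passing (-0.58 and -0.50). Srf itself did not pass (log2 fold -0.30, adjusted p = 0.157). Of dual specificity phosphatases and other feedback inhibitors besides Dusp1, 2 of 12 were higher, 0 lower and 10 did not pass, at a median of -0.04. They were Spred2, an inhibitor of Ras to ERK signalling (0.87, adjusted p = 0.00972), and Dusp16, a phosphatase of JNK (0.74, adjusted p = 0.0256). Spred2 missed the threshold without ventricular array 1a (adjusted p = 0.0552), as did Rps6ka3 (0.0502), and Dusp16 missed it without that array or either AV junction array (adjusted p up to 0.102).

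Besides Ccn1 and Ccn2, 15 CCN, YAP and TEAD genes and their targets were tested, of which 6 rose, 0 fell and 9 did not pass, at a median log2 fold of 0.31. Ccn4, a CCN gene first known as a Wnt target, rose by 1.21 (521 ± 65.0 in the AV junction, 198 ± 41.9 in the ventricular region, limma, adjusted p = 0.00809), and its dimmer probe set gave 0.94 without passing (adjusted p = 0.0640). Axl, a receptor kinase gene and YAP target, rose by 0.84 (adjusted p = 0.0309), and missed the threshold whichever array was dropped (highest adjusted p = 0.115). The co-activator genes Yap1 and Wwtr1 rose by 0.59 and 0.51 (adjusted p = 0.0149 and 0.0434), while a further probe set of Yap1 (0.22) and both others of Wwtr1 (0.07 and 0.08) did not pass. Ankrd1, another target of YAP that is abundant in heart muscle, read 3019 and 3609 on the AV junction arrays, against 4035 and 4047 on the ventricular arrays, and did not pass (-0.29, adjusted p = 0.124).

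Cytoskeletal targets of MRTF and serum response factor went both ways, with 4 of 15 tested higher, 2 lower and 9 not passed, at a median of 0.08. Tagln, an actin-binding protein of smooth and embryonic heart muscle, fell by 0.98 on the log2 scale (462 ± 69.8 in the AV junction, against 955 ± 41.0 in the ventricular region, limma, adjusted p = 0.00637), and Tpm4, a non-muscle tropomyosin, rose by 0.83 (adjusted p = 0.00238). Among 5 genes that endothelium switches with flow, 2 rose, 0 fell and 3 missed the threshold. They were Klf4, above, and Thbd, an anticoagulant receptor of endothelium, 2.83-fold higher (adjusted p = 0.0414), which read 461 and 507 on the AV junction arrays, against 248 and 69.4 on the ventricular arrays. The lower ventricular value was below background, and with 1 array left out the log2 fold of Thbd ran between 0.84 (without ventricular array 1b) and 2.16 (without ventricular array 1a) and passed only in the last of these fits. Heat shock genes, which rise in stressed tissue, were 0 of 11 higher and 1 lower (Hspb1, -0.40, adjusted p = 0.0347), with 10 not passed and a median of 0.10. Of these, Dnaja1, a co-chaperone of Hsp70, gave 0.28 on its brighter probe set (adjusted p = 0.0872) and passed as higher on the dimmer one (0.69, adjusted p = 0.0191).

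With single arrays left out, counts of several lists moved by over 1.5 times. The CCN and YAP list had 2 higher genes without AV junction array 1a, 1 without AV junction array 1b or ventricular array 1a, and 3 without ventricular array 1b. The upstream list had 1 without ventricular array 1a and 2 when any other array was dropped. The feedback list had 0 higher genes without ventricular array 1a and 1 without either AV junction array, the cytoskeletal list had 2 without AV junction array 1a or ventricular array 1a and 1 lower gene without AV junction array 1a or either ventricular array, and the flow list had 1 without either AV junction array or ventricular array 1b. Lower heat shock genes numbered 0 without any 1 of the 4 arrays.

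**Figure D4:**
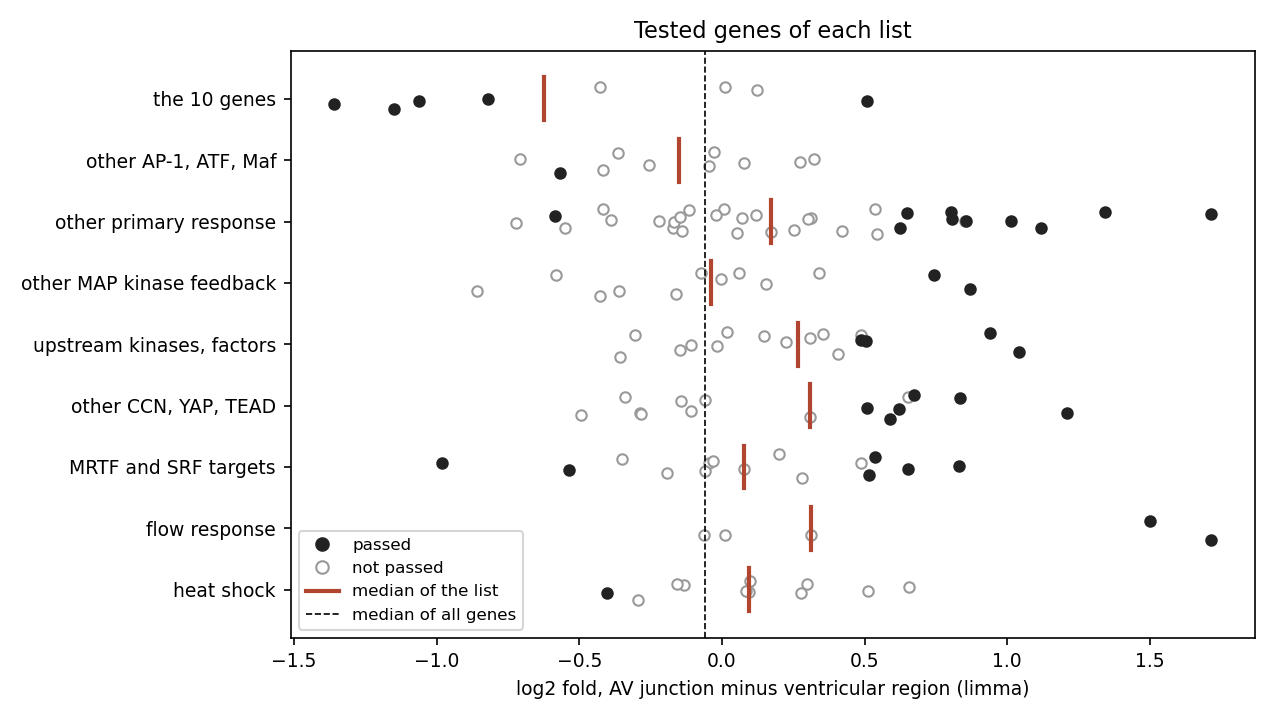
Log2 folds (AV junction minus ventricular region, limma) of the tested genes of the set, in the top row, and of the 8 other lists, filled where the adjusted p was at most 0.05, with each list's median as a bar and the median of all genes as a dashed line. The set has its median at -0.62 and 4 of its 5 filled points below 0, while the primary response, upstream and CCN lists have medians between 0.17 and 0.31.

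Transcripts of other cell types differed between the regions on the same arrays. Ventricular muscle markers summed to 27266 and 28313 on the AV junction arrays, against 86081.5 and 90330.1 on the ventricular arrays, with all 10 of 10 genes tested. Erythroid markers (8 of 9 genes tested, 0 higher and 7 lower) summed to 41739 and 42943 in the AV junction, against 78952 and 86774 in the ventricular region. Both lists were thus lower in the AV junction, in the direction of Egr1, Ccn2, Fos and Atf3. Cushion markers summed to 16922 and 14583 in the AV junction, against 4281 and 4412 in the ventricular region, and serum protein genes of hepatic tissue (4 of 8 tested, 3 higher and 0 lower) to 7233 and 6881 in the AV junction, against 557 and 558 in the ventricular region. These lists were higher in the AV junction, as Jun was. The part of these cell types in the folds of the set was not tested.

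Markers of other cell types differed less. Endothelial markers summed to 5025 and 5706 in the AV junction, against 4299.7 and 4940.5 in the ventricular region, with 1 of 8 tested genes higher (Tek) and 0 lower. Epicardial markers summed to 5031 and 5005 in the AV junction, against 5715 and 5651 in the ventricular region, with 1 of 9 higher and 2 lower (Krt19 and Krt18). Macrophage markers summed to 3706 and 3665 in the AV junction, against 2236 and 2404 in the ventricular region, with 2 of 5 tested genes higher and 1 lower (Lyz2). Much of these sums is the brightest probe set of Csf1r, at 2287 and 2363 in the AV junction, against 971 and 1137 in the ventricular region. It passed as higher (log2 fold 1.11), while the other probe sets of Csf1r gave 0.009 and -0.45 and did not pass. No marker gene in these 7 lists was listed at 0 on any array, judged by its brightest probe set.

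**Figure D5:**
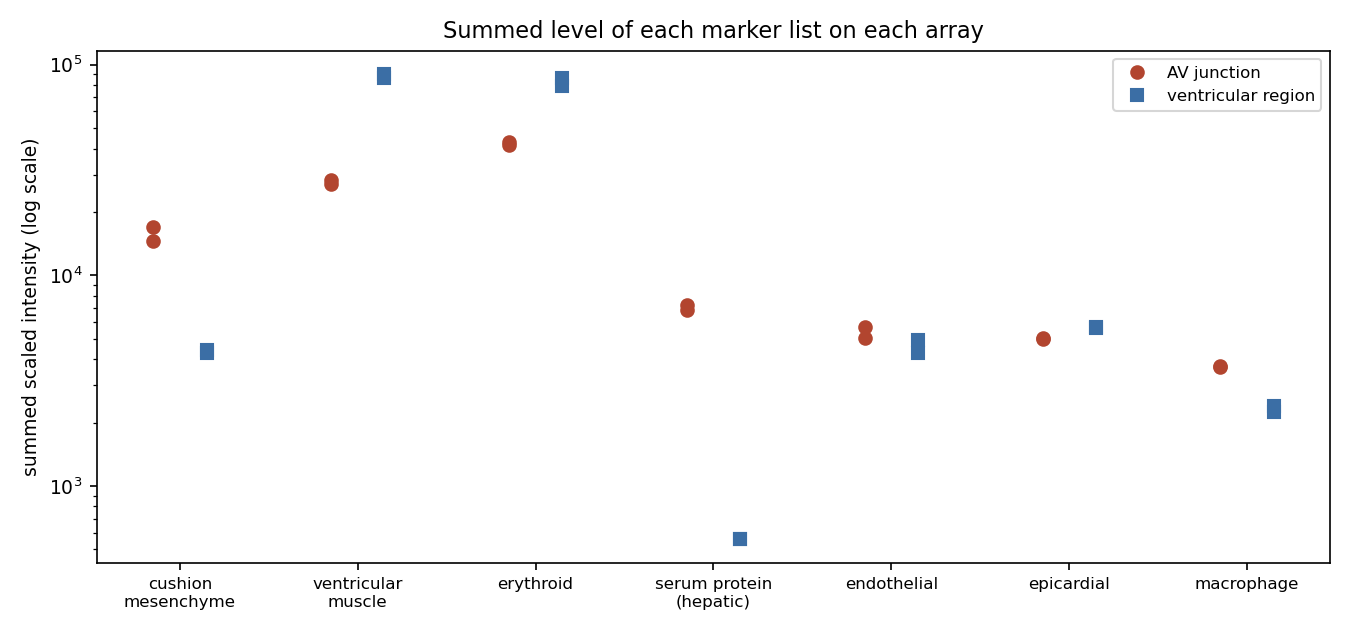
Summed scaled intensity (log axis) of 7 marker lists on each array, AV junction as circles and ventricular region as squares, taking each gene's brightest probe set. Ventricular muscle and erythroid markers lie lower in the AV junction, cushion mesenchyme and serum protein markers higher, and endothelial and epicardial markers nearly level.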

How the data were processed

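The genes, lists and tests were chosen with earlier results of these data known. The authors deposited an intensity for every probe set on every array, linear and produced with MAS5 according to the submitters' processing notes. Its version, the genome build and detection calls are not given in the sources used here. Of 22690 probe sets 64 are controls, and 20380 have 1 gene symbol, 691 several and 1555 none. Entrez ids of 20351 matched a GRCm38.p6 gene table that served to update names, which changed 0 symbols.

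Arrays were brought to a common 2% trimmed mean of 500. Probe sets with a mean of at least 100 over the 4 arrays were fitted (13403, for 8410 genes) as log2(intensity + 50) in limma 3.58.1 (lmFit, eBayes with trend, R 4.3.3) on region alone, with 7.43 total degrees of freedom. Fold changes are on this scale and understate those of dim genes. Adjusted p-values are limma's, by Benjamini and Hochberg's method over all probe sets tested, and a gene takes its brightest probe set by mean log2 value. An exact permutation of 2 against 2 arrays cannot give a two-sided p under 0.333. Background is the brightest of 27 bacterial control probe sets on an array. Intensities were compared only within a probe set. The number of arrays limits the precision.

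All probe sets of the set were named, and of each other pathway list the 2 largest changes that passed. Nab1, Srf, Ankrd1, Yap1, Wwtr1 and any other genes named from counts of 9 or fewer were named after their values were seen. Not every gene in these counts is named. Of 238 listed genes, 24 had no probe set of a single symbol. The 15 alternatives were quantile normalisation, median scaling, the values as deposited, pseudocounts of 1 and 200, a floor of 300 and none, eBayes without trend, the replicate block, leaving out every array in turn, averaging the probe sets within a gene, and dropping _x_at and _s_at probe sets. The code of the fit was tested on simulated data with independent normal noise, which does not show that the calls on these arrays are right. The array records name 1 chip lot and 1 scan session for all 4 arrays and a fluidics module of its own for each, so none of these could be fitted as a block. Arrays of the AV junction were scanned before the ventricular ones, so region and scan order cannot be told apart. Plots used matplotlib 3.10.9 (Python 3.11.15).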

Additional observations from a re-analysis of the deposited data

How the results depend on the processing

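Egr1, Ccn2 and Fos kept their direction and passed under all 15 alternatives, while Atf3 and Jun passed in 9 of 15 each. Ier2 and Dusp1 did not pass in any alternative, and their log2 folds changed sign without AV junction array 1a (-0.050 and -0.12), that of Ier2 without ventricular array 1a (-0.0016) and that of Dusp1 without ventricular array 1b (-0.03). With 1 array left out these ran from -0.050 to 0.30 for Ier2 and from -0.12 to 0.15 for Dusp1. The cause was not tested. Higher genes of the set numbered 0 with eBayes without trend, 0 when probe sets were averaged and 0 without any 1 array, and lower ones 3 or 4 without 1 array. Over all genes, main counts of 712 higher and 550 lower became 1208 and 286 with median scaling (80.9% of calls higher against 56.4%), 438 and 269 with no filter, where more dim probe sets enter the adjustment, and 243 and 209 with eBayes without trend. Over probe sets, 970 and 882 became 1714 and 459, 580 and 431, and 326 and 343. Pathway genes, 26 and 5, were 36 and 2 with median scaling, 15 and 2 with no filter, and 11 and 1 with eBayes without trend. Leaving out 1 array, where a lone array is assumed to vary like the others, gave 303 to 368 higher and 162 to 314 lower genes, 404 to 507 and 261 to 501 probe sets, and 12 to 18 and 1 to 2 pathway genes. With the replicate block, lower genes numbered 852, lower probe sets 1375 and lower pathway genes 9. Differences between replicates 1a and 1b correlated at 0.06 between regions over 13403 probe sets, and nothing in the labels says that the numbers pair arrays. The block changed no call of the set. Dim probe sets such as those of Fosb and Junb lie near background, which limits what they can show.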

Other observations

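The closest relatives of Egr1 and the NR4A nuclear receptors, induced with them, went no single way, and 0 of the 4 tested passed in limma (2 at an unadjusted p under 0.05). They were chosen after their values were seen. Nr4a1 read 242 and 184 on the AV junction arrays, against 437 and 332 on the ventricular arrays (log2 fold -0.72, limma, adjusted p = 0.0558). Egr3 read 161 and 188 in the AV junction, against 282 and 273 in the ventricular region (-0.55, adjusted p = 0.0911). In both the AV junction arrays lay below the ventricular ones. Egr4 (-0.17, adjusted p = 0.765) and Nr4a2 (0.05, adjusted p = 0.904) had overlapping arrays. Egr2 and Nr4a3 were too dim to be tested, with log2 folds of 0.38 and 0.51 on the probe sets of Egr2 and of 0.15 and -0.24 on those of Nr4a3.

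In the 8 lists, 6 genes that did not pass on their brightest probe set passed on another. Besides Atf2 and Dnaja1 these were Spry2, Btg1, Tpm1 and Tpm2. Spry2, a feedback inhibitor of receptor kinases, gave -0.0026 on its brighter probe set and -0.81 on the dimmer one (limma, adjusted p = 0.0363). Btg1 gave 0.25 and 0.75, the dimmer one passing (adjusted p = 0.00986). Tpm1, a muscle tropomyosin, gave -0.35, 1.01 and -0.72 on its 3 probe sets, and 1 of them passed (1.01, adjusted p = 0.0286). Tpm2, another muscle tropomyosin, gave -0.06 on its brightest probe set, -0.55 on the one that passed (adjusted p = 0.0406) and 0.22 on the other one tested.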
